A study of Mus musculus with 9 samples.

Results

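Slc12a3, Scnn1a, Scnn1b, Scnn1g, Wnk1, Wnk4, Stk39, Sgk1, Nedd4l and Hsd11b2 encode the sodium transporters of the distal nephron and the proteins that set their activity. These 10 genes, chosen by name, were followed among 32593 genes of a kidney RNA-seq table, and all 10 were among the 12507 genes tested. None passed the test in any of 3 comparisons, in which 0.168%, 0% and 0.144% of all tested genes passed. The libraries of the groups compared overlapped for all 10 genes. They were apart for 12.2%, 14.0% and 9.96% of all tested genes in those comparisons. Sgk1, the aldosterone-induced kinase, varied most between libraries of 1 group, and Wnk1 had the smallest p of the genes in CDH16KO-AngII against AngII, without passing the adjusted threshold.

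Sodium left in the filtrate after the loop of Henle is taken up by the thiazide-sensitive cotransporter NCC (Slc12a3) in the distal convoluted tubule and by the epithelial sodium channel ENaC (subunits Scnn1a, Scnn1b and Scnn1g) in the connecting tubule and collecting duct. WNK kinases (Wnk1, Wnk4) phosphorylate SPAK (Stk39), which phosphorylates and activates NCC. Aldosterone acts through the mineralocorticoid receptor, which Hsd11b2 keeps clear of glucocorticoid, and induces Sgk1, which restrains the ubiquitin ligase Nedd4l from removing ENaC. Angiotensin II (AngII), the pressor hormone of the renin system, acts on this system largely through phosphorylation and aldosterone release. RNA counts measure neither phosphorylation nor channels at the membrane.

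Whole kidney RNA came from mice given AngII, with 3 libraries in each of 3 groups. CDH16KO-AngII had the genotype CDH16 Cre+/Tmemfl/fl, a floxed Tmem allele with Cre named for Cdh16, a cadherin whose promoter is active in kidney tubule epithelium. GRPR-AngII had the genotype CDH16 Cre+/GRPRfl/fl, a floxed GRPR allele with the same Cre. AngII had the genotype Tmemfl/fl and no Cre. All groups received AngII, so its own effect is not analysed here, and both Cre-positive groups were set against the same 3 Cre-negative libraries. Presence of Cre and recombination of the floxed allele cannot be told apart in these comparisons. GRPR-AngII also differed from AngII in which allele was floxed, and there was no Cre-negative group with the floxed GRPR allele. The difference in allele therefore cannot be told apart from Cre there either. The strain, sex and age of the mice, the dose and duration of AngII, and whether each library was a separate animal were not given in sources used here. P-values therefore measure only how far these libraries scatter, which may be technical.

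Totals were 40731748 to 60449117 counts per library, mitochondria-coded genes took 16.1% to 26.4% of them, and 11456 to 12276 genes reached an FPKM of 1. Sting1, formerly Tmem173 and the likely meaning of Tmem given the series title, was at 2.15, 2.24 and 2.04 CPM (counts per 1e+06 after TMM scaling) in CDH16KO-AngII, at 2.90, 2.90 and 2.68 CPM in GRPR-AngII and at 4.62, 1.77 and 5.33 CPM in AngII. AngII library 2 was below every other library, so these values do not check the label of the deleted gene. The tissue label was checked on markers of 8 kidney cell types and compartments and of the adrenal gland. Of the 6 adrenal markers 4 were in the table, all under an FPKM of 1, with a sum of 2.05 to 4.24 CPM per library. No marker of the 8 kidney lists was at 0 in any library, and 3 of the 4 adrenal markers were at 0 in at least 1. Of the kidney lists, only the immune list had markers under an FPKM of 1 in every library, 2 of its 6.

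The promoters of Slc12a3, Scnn1g, Scnn1b and Sgk1 are shown for the letters these genes share, and do not share, at their start sites. Windows of 250 bases before to 50 bases after each RefSeq start (GRCm38.p6) were held for 7 of the 10 genes, 12 windows in all, 6 of them for Sgk1. No window was held for Scnn1a, Hsd11b2 or Nedd4l, so their promoters were not searched. Capitals mark AGAACA, any 3 bases and TGTTCT in Sgk1, a palindrome of the kind that steroid receptors bind, TATAAA in Slc12a3, and GGGCGG, a GC box read on either strand, in Scnn1g and Scnn1b. All 4 windows are on the plus strand, at chr10:21993640-21993939 for Sgk1, chr8:94328958-94329257 for Slc12a3, chr7:121734229-121734528 for Scnn1g and chr7:121864788-121865087 for Scnn1b.
Sgk1: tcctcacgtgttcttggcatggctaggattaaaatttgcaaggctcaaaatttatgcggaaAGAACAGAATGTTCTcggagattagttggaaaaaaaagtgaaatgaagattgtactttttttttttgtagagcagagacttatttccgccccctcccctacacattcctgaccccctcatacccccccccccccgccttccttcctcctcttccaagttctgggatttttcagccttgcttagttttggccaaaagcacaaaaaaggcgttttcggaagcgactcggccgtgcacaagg
Slc12a3: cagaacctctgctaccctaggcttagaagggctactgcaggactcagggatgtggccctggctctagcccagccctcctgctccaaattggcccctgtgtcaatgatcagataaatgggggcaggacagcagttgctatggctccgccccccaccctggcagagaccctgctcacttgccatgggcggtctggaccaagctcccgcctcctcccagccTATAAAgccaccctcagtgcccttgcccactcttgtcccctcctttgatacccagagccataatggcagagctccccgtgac
Scnn1g: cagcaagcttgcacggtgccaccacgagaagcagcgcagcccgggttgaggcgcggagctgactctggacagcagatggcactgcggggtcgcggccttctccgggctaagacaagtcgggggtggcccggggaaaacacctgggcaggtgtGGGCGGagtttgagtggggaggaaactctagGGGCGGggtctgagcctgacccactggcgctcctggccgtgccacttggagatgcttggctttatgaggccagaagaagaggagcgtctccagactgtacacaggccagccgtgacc
Scnn1b: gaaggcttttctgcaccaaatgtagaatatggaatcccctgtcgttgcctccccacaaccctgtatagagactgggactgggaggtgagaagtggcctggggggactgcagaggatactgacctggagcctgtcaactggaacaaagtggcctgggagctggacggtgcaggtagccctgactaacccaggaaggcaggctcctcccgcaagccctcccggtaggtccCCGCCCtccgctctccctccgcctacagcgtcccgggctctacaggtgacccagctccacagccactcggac

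The palindrome, which reads alike on both strands and contains AGAACA on each, was found in 3 of 32851 windows of the RefSeq table (0.00913%), and 1 of the 3 was this Sgk1 window. The match lies at 21993701 to 21993715 on chromosome 10, 189 bases before the annotated start at 21993890 and 965 bases before the most downstream start at 21994666. The shorter AGAACA was in 19.0% of all windows and, of the 7 genes, only in windows of Sgk1. TATAAA was in 13.6% of all windows, and in windows of Slc12a3 and Sgk1 among the 7 genes. GGGCGG was in 35.7% of all windows and in 8 of the 12, with at least 1 window for each of the 7 genes. Scnn1g and Scnn1b lie on the same strand of chromosome 7 with 96562 bases between them. These matches are descriptions of letters, and no binding was measured.

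Levels were compared between genes per length, and the length decided which gene came first. By the deposited FPKM (fragments scaled to gene length and library total), Hsd11b2, the enzyme that inactivates glucocorticoids, was highest, at 80.7 ± 7.14 in CDH16KO-AngII, 72.0 ± 13.8 in GRPR-AngII and 85.9 ± 8.0 in AngII (SD, n = 3 each). Slc12a3 came second at 63.3 ± 11.2, 70.7 ± 19.6 and 62.6 ± 3.92 FPKM in the same 3 groups (SD, n = 3 each). The ranges of these 2 genes overlapped in GRPR-AngII and were apart in CDH16KO-AngII and in AngII.

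The ratio of count to FPKM gives the product of the gene length and the library total by which the authors divided. Relative to Scnn1g it varied by at most 0.275% between libraries for any of the 10 genes, so 1 fixed length per gene was used. The length therefore adds no difference between groups, but FPKM lack the TMM scaling of the CPM, and small differences can change sign. By mean CPM, Wnk4 was higher in GRPR-AngII than in AngII (240 against 235), and by mean FPKM it was lower (46.8 against 48.2). With the column totals as library totals, the implied length was 1.2 times the union of all annotated exons (GENCODE M21) for 9 genes and 1.32 times for Nedd4l. A factor shared by the genes may lie in the authors' library total and not in the length. These ratios do not separate them. The union of exons of Slc12a3 is 11119 bases, against 4310 bases for its longest coding transcript. For Wnk1 the 2 lengths are 22825 and 11330 bases, for Nedd4l 17659 and 7787 bases, and for Hsd11b2 1840 bases by both.

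Per kilobase of the longest coding transcript, an alternative chosen after seeing this, Slc12a3 was first and Hsd11b2 second in every group. Slc12a3 averaged 196 ± 29.9 CPM per kb in CDH16KO-AngII, 223 ± 50.9 in GRPR-AngII and 190 ± 18 in AngII (SD, n = 3 each). Hsd11b2 averaged 97 ± 5.93, 88.1 ± 10.5 and 101 ± 5.89 CPM per kb in those groups (SD, n = 3 each). The ratio of Slc12a3 to Hsd11b2 over the 9 libraries was 0.655 to 1.10 by FPKM and 1.69 to 2.83 by the longest transcript. Which transcripts were made in these kidneys is not analysed here.

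**Figure D1:**
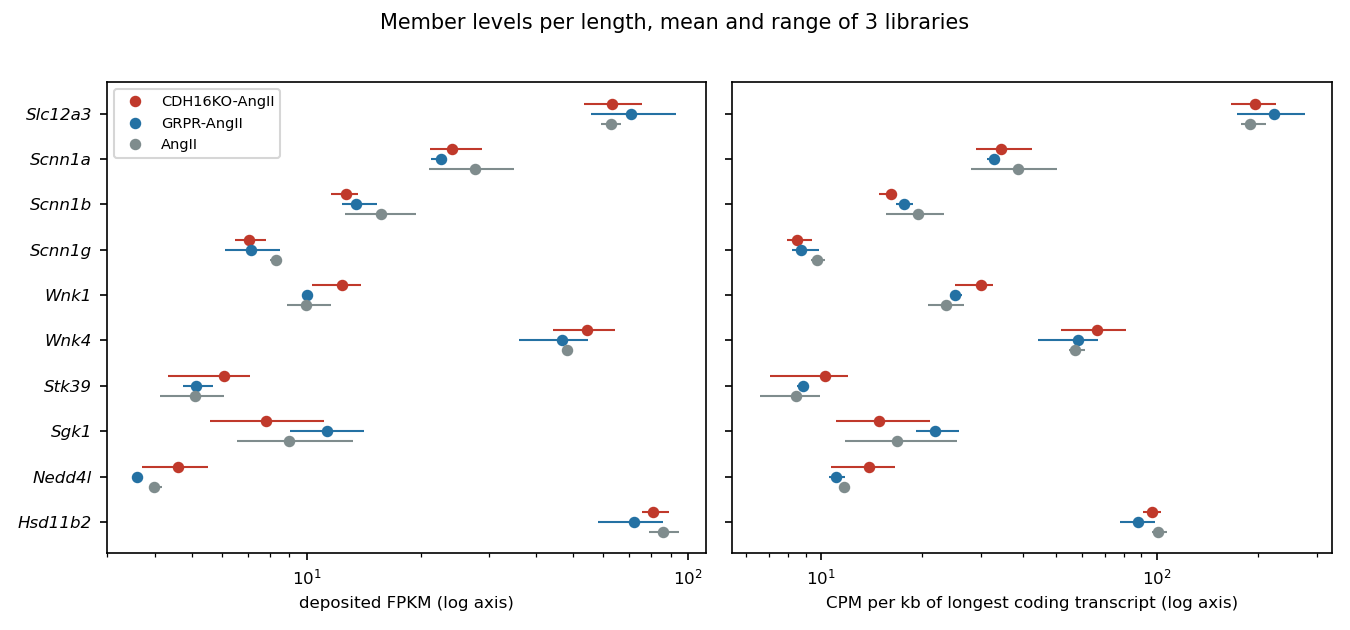
Level of each gene per length in the 3 groups (points, mean of 3 libraries; bars, lowest to highest library; log axes), as deposited FPKM on the left and as CPM per kilobase of the longest coding transcript on the right. Hsd11b2 has the highest mean on the left and Slc12a3 on the right, in every group.

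Wnk4 held the third place by both lengths, at 44.2 to 64.3 FPKM in CDH16KO-AngII, 36.1 to 54.7 in GRPR-AngII and 47.0 to 49.6 in AngII, and its range overlapped that of Slc12a3 in CDH16KO-AngII. Scnn1a came next by both, at means of 22.5 to 27.7 FPKM, with no library overlapping its neighbours Wnk4 and Scnn1b by FPKM in any group. Scnn1b, Wnk1 and Sgk1 followed by FPKM, at group means of 7.82 to 15.7, and their ranges overlapped in part. Scnn1g (7.05 to 8.29), Stk39 (5.11 to 6.09) and Nedd4l (3.60 to 4.61) had the lowest mean FPKM. By the longest coding transcript Nedd4l stood above both, at 1.08 to 1.77 times Scnn1g and 1.14 to 1.80 times Stk39 over the libraries.

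Slc12a3 (ENSMUSG00000031766, chromosome 8, 94329201 to 94366214 on GRCm38) encodes NCC and had the most counts of the 10 genes. Libraries 1 to 3 had 717, 976 and 843 CPM in CDH16KO-AngII, 752, 1190 and 946 CPM in GRPR-AngII and 907, 765 and 782 CPM in AngII. The lowest and the highest library of the 9 were both from Cre-positive groups, and all groups overlapped. The log2 fold change was 0.05 in CDH16KO-AngII against AngII (SE 0.20, edgeR adjusted p = 0.946, 95% interval of the fold 0.762 to 1.40). It was 0.23 in GRPR-AngII against AngII (SE 0.20, edgeR adjusted p = 0.802, fold 0.867 to 1.60). Without CDH16KO-AngII library 2 the first of these was -0.07.

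The ENaC subunits had lower means in both Cre-positive groups than in AngII, and no difference passed the test. Scnn1a (ENSMUSG00000030340, chromosome 6, 125320659 to 125344933), the pore subunit that aldosterone induces in kidney, had 111, 101 and 149 CPM in CDH16KO-AngII, 117, 109 and 117 CPM in GRPR-AngII and 177, 131 and 97.8 CPM in AngII. AngII held both the highest and the lowest Scnn1a library. Scnn1b (ENSMUSG00000030873, chromosome 7, 121865038 to 121918514) had 36.9, 41.7 and 41.9 CPM in CDH16KO-AngII, 41.3, 46.5 and 43.6 CPM in GRPR-AngII and 48.3, 38.7 and 57.8 CPM in AngII. Scnn1g (ENSMUSG00000000216, chromosome 7, 121734479 to 121768475) had 28.2, 23.7 and 24.3 CPM in CDH16KO-AngII, 24.5, 29.5 and 24.5 CPM in GRPR-AngII and 30.9, 28.0 and 28.4 CPM in AngII. In each subunit at least 1 AngII library lay within the range of each Cre-positive group or below it.

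In CDH16KO-AngII against AngII the log2 fold changes of Scnn1a, Scnn1b and Scnn1g were -0.17, -0.27 and -0.20 (SE 0.21, 0.15 and 0.13; edgeR adjusted p = 0.817, 0.646 and 0.678). In GRPR-AngII against AngII they were -0.24, -0.14 and -0.16 (SE 0.21, 0.15 and 0.13; edgeR adjusted p = 0.808, 0.840 and 0.802). The 2 comparisons share their AngII libraries. Without AngII library 1, Scnn1a stood at 0.07 in CDH16KO-AngII and at 0.0002 in GRPR-AngII against AngII, and without AngII library 3, Scnn1b stood at 0.01 in GRPR-AngII against AngII. The proportions between subunits overlapped between the groups. Scnn1b over Scnn1g in FPKM was 1.49 to 1.99 in CDH16KO-AngII, 1.80 to 2.02 in GRPR-AngII and 1.57 to 2.31 in AngII. Scnn1a over Scnn1g was 2.85 to 4.44, 2.68 to 3.47 and 2.49 to 4.13 in the same groups.

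**Figure D2:**
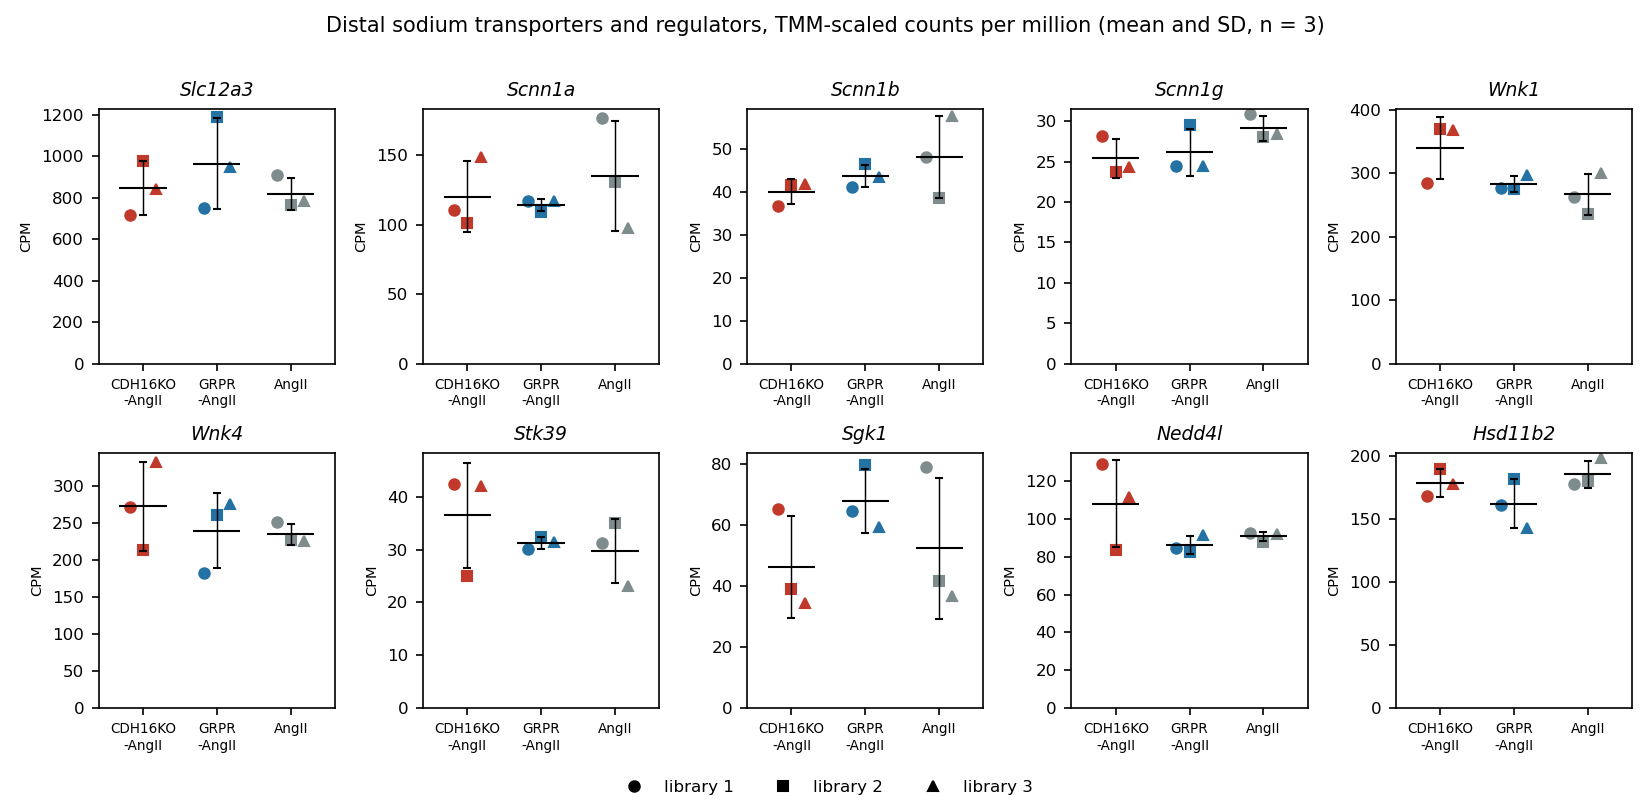
TMM-scaled counts per 1e+06 (CPM) of the 10 genes in each library (symbols mark libraries 1 to 3 of a group; horizontal lines, group mean; bars, SD, n = 3). The points of the groups overlap in every panel, and Sgk1 shows the widest scatter within CDH16KO-AngII and AngII.

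Of the kinases, Wnk1 (ENSMUSG00000045962, chromosome 6, 119923969 to 120038672) had 284, 369 and 368 CPM in CDH16KO-AngII, 277, 275 and 298 CPM in GRPR-AngII and 263, 236 and 301 CPM in AngII. Libraries 2 and 3 of CDH16KO-AngII were above all others, and library 1 was below AngII library 3. Its log2 fold change in CDH16KO-AngII against AngII was 0.35 (SE 0.15, unadjusted p = 0.0460, edgeR adjusted p = 0.588, fold 1.01 to 1.62). The adjusted p lay between 0.340 and 0.955 over the alternatives run. In GRPR-AngII against AngII it was 0.09 (SE 0.15, edgeR adjusted p = 0.905). The gene also makes a kidney-specific short form without the kinase domain, from an internal start, and counts per gene do not separate the 2 forms.

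Wnk4 (ENSMUSG00000035112, chromosome 11, 101260567 to 101277409), the WNK kinase of the distal convoluted tubule, had 272, 213 and 333 CPM in CDH16KO-AngII, 182, 261 and 276 CPM in GRPR-AngII and 251, 227 and 226 CPM in AngII. The AngII libraries lay inside the range of both Cre-positive groups. Its log2 fold change was 0.22 in CDH16KO-AngII and 0.03 in GRPR-AngII against AngII (SE 0.20 each, edgeR adjusted p = 0.751 and 0.979), and the second value was -0.05 without scaling, -0.04 without GRPR-AngII library 2 and -0.08 without GRPR-AngII library 3. An antisense gene, Gm11615, shares 306 exon bases with Wnk4 (7.38% of its exons) and averaged 21.2 counts, and whether counting used strand is unknown here.

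Stk39 (ENSMUSG00000027030, chromosome 2, 68210445 to 68472268), the SPAK kinase, had 42.5, 25.0 and 42.1 CPM in CDH16KO-AngII, 30.1, 32.4 and 31.5 CPM in GRPR-AngII and 31.2, 35.0 and 23.2 CPM in AngII. Its CDH16KO-AngII libraries 1 and 3 were above all others and its library 2 was below every library but AngII library 3. The log2 fold change was 0.29 in CDH16KO-AngII and 0.07 in GRPR-AngII against AngII (SE 0.21 each, edgeR adjusted p = 0.696 and 0.951), and the second value was -0.0012 without scaling and -0.08 without AngII library 3. In FPKM the ratio of Slc12a3 to Stk39 was 7.52 to 17.4 in CDH16KO-AngII, 11.1 to 16.4 in GRPR-AngII and 9.74 to 15.0 in AngII.

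Sgk1 (ENSMUSG00000019970, chromosome 10, 21882184 to 21999893), whose palindrome-bearing promoter is printed above, had 65.3, 38.9 and 34.3 CPM in CDH16KO-AngII, 64.5, 79.7 and 59.4 CPM in GRPR-AngII and 79.0, 41.5 and 36.6 CPM in AngII. All 3 GRPR-AngII libraries were above libraries 2 and 3 of both other groups, whose library 1 was as high as GRPR-AngII. The log2 fold change was -0.18 in CDH16KO-AngII and 0.37 in GRPR-AngII against AngII (SE 0.31 each, edgeR adjusted p = 0.861 and 0.802), and the first value was 0.24 without AngII library 1. In GRPR-AngII against CDH16KO-AngII it was 0.56 (SE 0.31, edgeR adjusted p = 0.901, fold 0.912 to 2.37), the largest of the 10 genes in that comparison. The pooled within-group SD of its log2 CPM was 0.460, larger than that of 95.4% of 6700 tested genes with a mean of at least 20 CPM, whose median was 0.203. Hsd11b2 and Scnn1g stood at the other end, with 0.122 and 0.124.

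Nedd4l (ENSMUSG00000024589, chromosome 18, 64887705 to 65215069), the ligase that marks ENaC for removal, had 129, 83.6 and 112 CPM in CDH16KO-AngII, 84.6, 82.6 and 91.8 CPM in GRPR-AngII and 92.5, 87.8 and 92.1 CPM in AngII. GRPR-AngII and AngII kept to a narrow band, and only CDH16KO-AngII libraries 1 and 3 were above it. The log2 fold change was 0.25 in CDH16KO-AngII and -0.07 in GRPR-AngII against AngII (SE 0.16 each, edgeR adjusted p = 0.658 and 0.925). It was -0.33 in GRPR-AngII against CDH16KO-AngII (SE 0.16, unadjusted p = 0.0645, edgeR adjusted p = 0.835), with 1 CDH16KO-AngII library inside the GRPR-AngII range.

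Hsd11b2 (ENSMUSG00000031891, chromosome 8, 105518755 to 105523988) had 168, 190 and 178 CPM in CDH16KO-AngII, 161, 182 and 143 CPM in GRPR-AngII and 178, 180 and 198 CPM in AngII. The highest library was from AngII and the lowest from GRPR-AngII, with the groups overlapping. The log2 fold change was -0.05 in CDH16KO-AngII and -0.19 in GRPR-AngII against AngII (SE 0.13 each, edgeR adjusted p = 0.907 and 0.769).

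Over the 10 genes, 0 were called by edgeR in CDH16KO-AngII against AngII, where 0.168% of all tested genes were called, and 1 (Wnk1) had an unadjusted p under 0.05, against 8.45% of all tested genes. DESeq2, limma on FPKM and limma-voom also called none of them. In GRPR-AngII against AngII edgeR called 0 of the 10 and 0 of all tested genes (0%), and 0 had an unadjusted p under 0.05, against 6.74% of all. In GRPR-AngII against CDH16KO-AngII edgeR called 0 of the 10, where 0.144% of all were called, and 0 had an unadjusted p under 0.05, against 6.24%. The same 3 tools called none of the 10 in these comparisons. Libraries of the 2 groups did not overlap for 0 of the 10 in each comparison, against 12.2%, 14.0% and 9.96% of all tested genes. The log2 fold changes ran from -0.27 to 0.35, from -0.24 to 0.37 and from -0.33 to 0.56, with medians of 0.00, -0.02 and -0.11, beside 0.01, -0.01 and -0.01 over all tested genes.

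The intervals give the sizes of difference that these libraries allow. The 95% interval of the fold change lay within 2-fold in either direction for all 10 genes in CDH16KO-AngII against AngII. It did so for 9 of 10 in each of the other comparisons, where Sgk1 reached an upper bound of 2.09 and of 2.37.

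**Figure D3:**
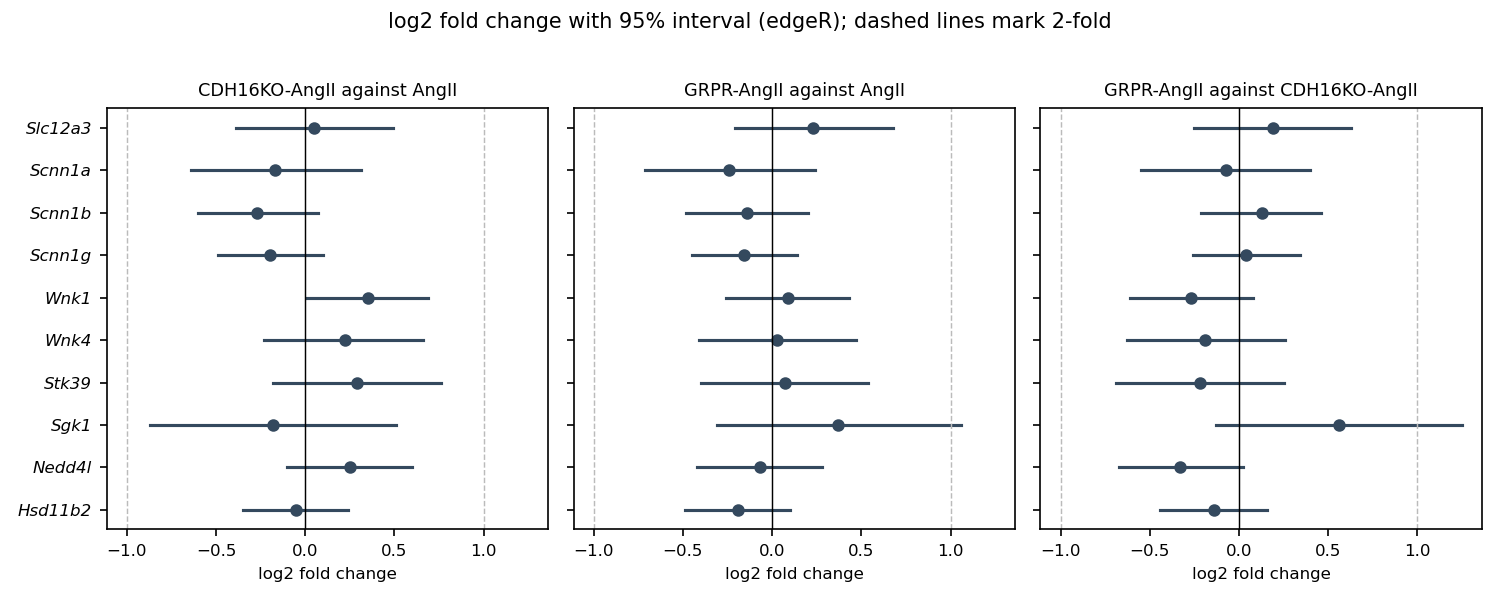
Log2 fold changes of the 10 genes in each comparison (points, edgeR estimate; lines, 95% interval; dashed lines, 2-fold). The intervals include 0 in every case but Wnk1 in CDH16KO-AngII against AngII, whose adjusted p was 0.588, and the upper ends of Sgk1 in the GRPR-AngII comparisons pass 2-fold.

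Partners of the pathway, taken from 3 lists without the 10 genes, did not pass the test either. Of all tested genes, 8.45%, 6.74% and 6.24% had an unadjusted edgeR p under 0.05 in the 3 comparisons. Of 13 WNK and SPAK partners 11 were tested, and edgeR, DESeq2 and limma called none in any comparison (medians -0.01, -0.10 and -0.05; 0, 1 and 0 had an unadjusted edgeR p under 0.05). Cul3, the scaffold of the ligase that degrades WNKs, had 53.0, 78.4 and 53.6 CPM in CDH16KO-AngII and 84.4, 84.8 and 63.9 CPM in AngII, with overlap (edgeR log2 fold change -0.33, adjusted p = 0.631). Ppp1r1a, a phosphatase inhibitor known to bear on NCC phosphorylation, had 419, 213 and 452 CPM in CDH16KO-AngII and 307, 297 and 245 CPM in AngII, also with overlap (edgeR log2 fold change 0.35, adjusted p = 0.700). Klhl3, the adaptor of that ligase, kept between 52.9 and 61.3 CPM in CDH16KO-AngII, 54.3 and 62.5 CPM in GRPR-AngII and 48.3 and 65.2 CPM in AngII. Oxsr1, the sister kinase of SPAK, lay at 24.0 to 28.6, 24.6 to 34.4 and 26.5 to 30.7 CPM in the same groups.

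Of 18 genes for the aldosterone receptor and for ENaC processing and turnover 17 were tested, and edgeR, DESeq2 and limma called none in any comparison (medians -0.03, -0.09 and -0.06; 0, 0 and 1 had an unadjusted edgeR p under 0.05). Pdpk1, the kinase that activates Sgk1, had 13.1, 14.4 and 10.8 CPM in CDH16KO-AngII and 20.1, 18.3 and 13.4 CPM in AngII (a log2 fold change of -0.43 with an adjusted p of 0.658 by edgeR), and CDH16KO-AngII library 2 was above AngII library 3. Fkbp5, a steroid-induced chaperone partner, had 41.7, 81.5 and 45.7 CPM in CDH16KO-AngII and 42.0, 44.8 and 36.4 CPM in AngII (a log2 fold change of 0.45 with an adjusted p of 0.689 by edgeR), and the value was 0.09 without CDH16KO-AngII library 2. Of 9 genes for sodium exit and potassium 8 were tested and edgeR called none (medians 0.18, -0.17 and -0.34). An unadjusted edgeR p under 0.05 was found for 1, 3 and 1 of these 8, against 8.45%, 6.74% and 6.24% of all tested genes. DESeq2 called 1, Slc8a1, in CDH16KO-AngII against AngII, where it called 210 of the 12507 tested genes. Slc12a1, the NKCC2 cotransporter of the thick ascending limb, had 773, 779 and 842 CPM in GRPR-AngII and 1321, 617 and 1817 CPM in CDH16KO-AngII (log2 fold change -0.65, edgeR adjusted p = 0.835), with AngII at 1145, 1157 and 899 CPM.

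Slc12a3 was set beside the other 6 markers of the distal convoluted tubule, the segment that makes NCC. In whole kidney RNA, fewer cells of a type and less RNA per cell cannot be told apart. None of the 6 was called by edgeR. An unadjusted edgeR p under 0.05 was found for 3, 4 and 1 of the 6 in the 3 comparisons. The shares of all tested genes were 8.45%, 6.74% and 6.24%. Of the 4 in GRPR-AngII against AngII, Egf was lower. Pvalb, Trpm6 and Slc8a1 were higher in every library of each Cre-positive group than in every AngII library. With each comparison taken alone, this held for 6.65% of tested genes in CDH16KO-AngII and 6.85% in GRPR-AngII against AngII. The share of genes with the pattern in both groups was not computed. Pvalb, a calcium buffer of the early segment, had 66.3, 40.7 and 23.3 CPM in CDH16KO-AngII, 28.9, 20 and 20.2 CPM in GRPR-AngII and 9.04, 16.6 and 14.3 CPM in AngII. Trpm6, the magnesium channel, had 22.5, 14.8 and 14.2 CPM in CDH16KO-AngII, 21.7, 16.0 and 20.2 CPM in GRPR-AngII and 9.89, 6.81 and 10.3 CPM in AngII. Slc8a1, the sodium-calcium exchanger of the late segment, had 65.6, 120 and 82.6 CPM in CDH16KO-AngII, 74.1, 63.3 and 68.7 CPM in GRPR-AngII and 42.3, 50.4 and 55.3 CPM in AngII. Each of these genes kept both Cre-positive groups apart from AngII, as Slc12a3 did not, and both comparisons used the same AngII libraries. The Cre-positive groups overlapped each other for all of them.

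In CDH16KO-AngII against AngII the log2 fold changes of Pvalb, Trpm6 and Slc8a1 were 1.70, 0.93 and 0.86 (SE 0.36, 0.23 and 0.21; edgeR adjusted p = 0.137, 0.215 and 0.211). In GRPR-AngII against AngII they were 0.79, 1.10 and 0.48 (SE 0.35, 0.23 and 0.21; edgeR adjusted p = 0.732, 0.540 and 0.732). DESeq2 called all 3 in CDH16KO-AngII against AngII (adjusted p = 0.000211, 0.0201 and 0.0128) and Trpm6 in GRPR-AngII against AngII (adjusted p = 0.00953), while the edgeR and limma alternatives called none of them, with adjusted p up to 0.634, 0.679 and 0.503 for Trpm6, Slc8a1 and Pvalb in the first comparison and up to 1.0 for Trpm6 in the second. Of the 12507 tested genes DESeq2 called 210 in CDH16KO-AngII and 45 in GRPR-AngII against AngII, where edgeR called 21 and 0. The median log2 fold change of the 6 markers was 0.53, 0.38 and -0.24 in the 3 comparisons. Calb1, Egf and Fxyd2 overlapped between the groups. Egf, the growth factor precursor of distal tubules, had 769, 652 and 738 CPM in CDH16KO-AngII, 687, 409 and 497 CPM in GRPR-AngII and 886, 848 and 566 CPM in AngII. Its differences ran opposite to Pvalb, Trpm6 and Slc8a1, with log2 fold changes of -0.09 and -0.53 against AngII (SE 0.23 each, unadjusted p = 0.696 and 0.0416, edgeR adjusted p = 0.905 and 0.732), and the first value was 0.03 without AngII library 1. Calb1, a calcium buffer, had 150, 263 and 124 CPM in CDH16KO-AngII, 197, 236 and 135 CPM in GRPR-AngII and 143, 155 and 167 CPM in AngII. Fxyd2, a regulatory subunit of sodium transport, was at 2626 to 3362 CPM in CDH16KO-AngII, 2379 to 2898 CPM in GRPR-AngII and 2585 to 2712 CPM in AngII. The mean log2 CPM of these 6 markers, without Slc12a3, was 7.19 to 7.51 in CDH16KO-AngII, 7.05 to 7.36 in GRPR-AngII and 6.75 to 6.87 in AngII. Their summed CPM overlapped between the groups, at 3717 to 4344, 3123 to 3883 and 3467 to 3789 in the same order. Fxyd2 made up most of that sum, with means of 2906, 2717 and 2650 CPM, so the sum says little about Pvalb, Trpm6 and Slc8a1. The 8 proximal tubule markers, for comparison, had a mean log2 CPM of 9.40 to 9.88, 9.72 to 9.93 and 9.64 to 9.85. The summed CPM of these proximal markers was 8204 to 11040, 10953 to 12821 and 10987 to 12695. Their part in the distal values was not tested.

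**Figure D4:**
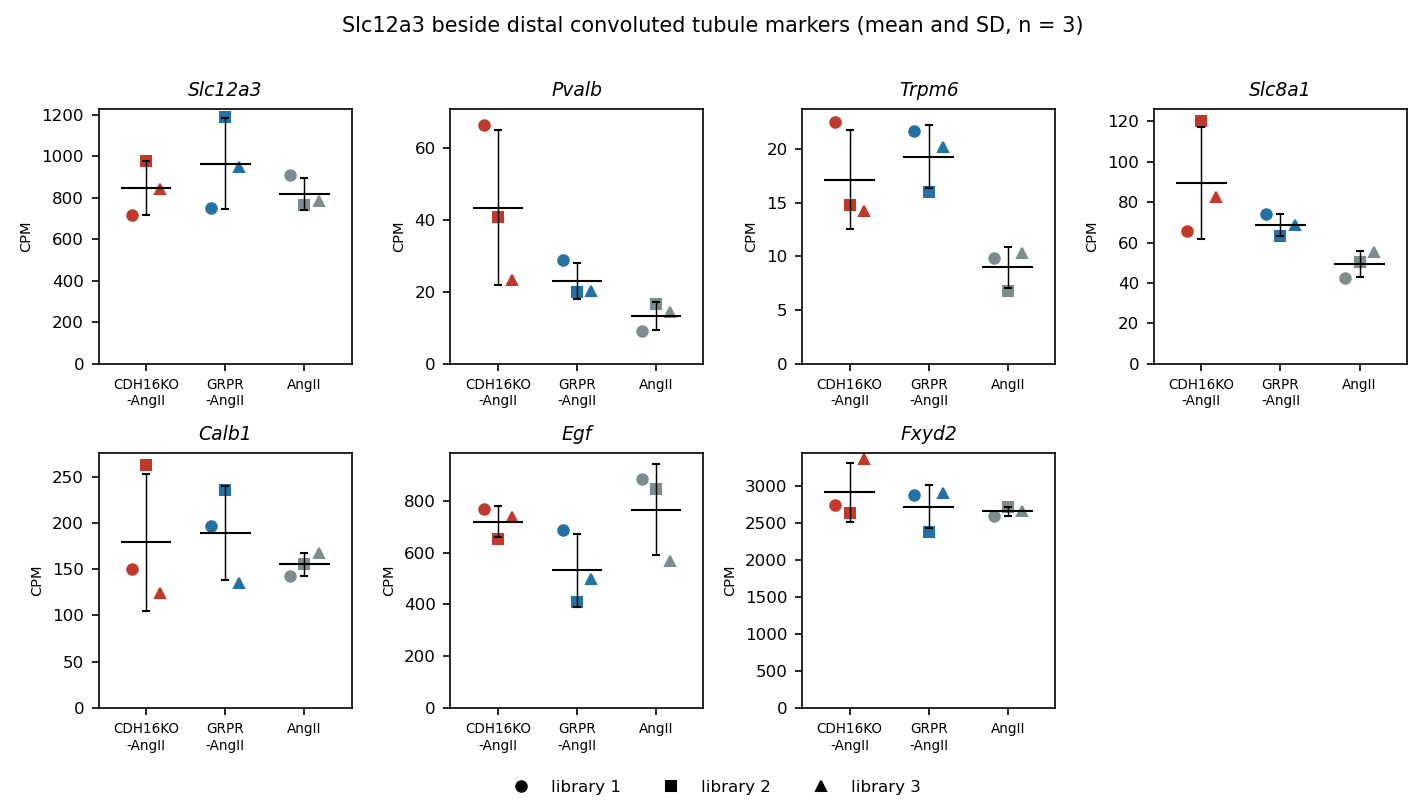
TMM-scaled counts per 1e+06 (CPM) of Slc12a3 and the other 6 distal convoluted tubule markers in each library (symbols mark libraries 1 to 3; lines, mean; bars, SD, n = 3). Every point of both Cre-positive groups is above every AngII point for Pvalb, Trpm6 and Slc8a1, and the groups overlap for Slc12a3, Calb1, Egf and Fxyd2.

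Nr3c2, the mineralocorticoid receptor through which aldosterone acts on Sgk1 and Scnn1a, had 11.9, 10.5 and 10.2 CPM in CDH16KO-AngII, 11.2, 1.48 and 8.97 CPM in GRPR-AngII and 12.1, 13.8 and 10.8 CPM in AngII. GRPR-AngII library 2, with 92 counts for Nr3c2, was far below the other 8 libraries. That library was also the lowest of the 9 for the steroid-induced genes Per1 (19.2 CPM), Tsc22d3 (23.8 CPM) and Fkbp5 (25.6 CPM), and the highest for Sgk1 (79.7 CPM) and Slc12a3 (1190 CPM). Across all tested genes 9 were at least 4-fold below every other library in it, and 7 to 21 in the other libraries. The log2 fold change of Nr3c2 was -0.76 in GRPR-AngII against AngII (SE 0.52, edgeR adjusted p = 0.765), and its range over fits leaving out 1 library was -1.24 to -0.27. The cause of this value was not tested.

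Sgk1 and the other steroid-induced genes did not rank the libraries alike in every group. AngII library 1 was the highest of its group for Sgk1 (79.0 CPM), Per1 (53.8 CPM) and Tsc22d3 (40.0 CPM), and CDH16KO-AngII library 1 was the highest of its group for the same 3 genes (65.3, 43.7 and 52.9 CPM). Fkbp5 went another way in both groups, being lowest in CDH16KO-AngII library 1 (41.7 CPM, against 81.5 and 45.7 CPM in libraries 2 and 3) and highest in AngII library 2 (44.8 CPM). In GRPR-AngII, library 2 was the highest for Sgk1 and the lowest for Per1, Tsc22d3 and Fkbp5. Aqp2, the water channel of principal cells, which hold ENaC, ran from 95.2 to 566 CPM in CDH16KO-AngII, 200 to 473 CPM in GRPR-AngII and 127 to 244 CPM in AngII. Aqp2 does not stand for its marker list. Of the 6 principal cell markers without Hsd11b2, 3, 2 and 3 had a positive log2 fold change in the 3 comparisons (medians 0.08, -0.13 and -0.02). Aqp3 and Gata3 had lower means in both Cre-positive groups than in AngII, where Aqp2 had higher ones.

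**Figure D5:**
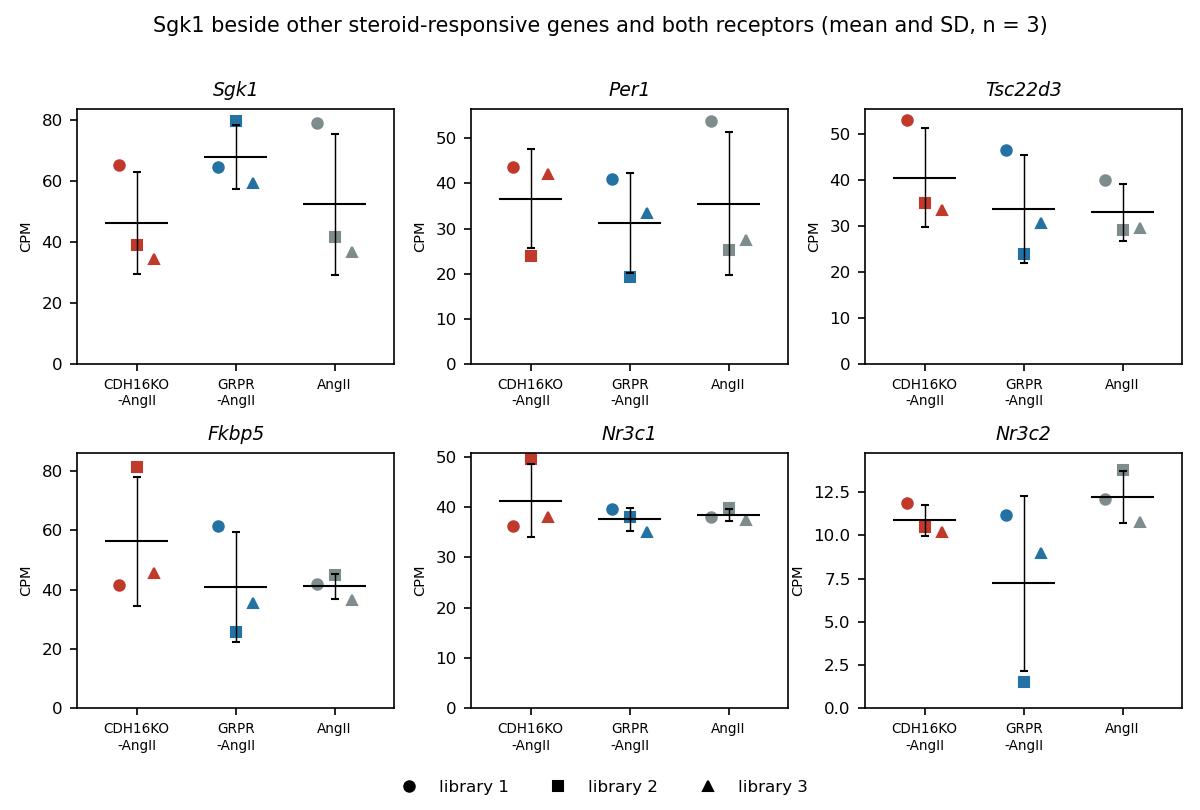
TMM-scaled counts per 1e+06 (CPM) of Sgk1, 3 other steroid-induced genes (Per1, Tsc22d3, Fkbp5) and the receptors Nr3c1 and Nr3c2 in each library (symbols mark libraries 1 to 3; lines, mean; bars, SD, n = 3). GRPR-AngII library 2 is the highest library for Sgk1 and the lowest library for Per1, Tsc22d3, Fkbp5 and Nr3c2.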

How the data were processed

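RNA-seq of whole kidney gave 9 libraries, prepared with a SMARTER mRNA-Seq kit per the labels' protocols. The submitters' processing notes name the builds GRCm38 and mm10. Aligner, counter and strand setting are not given in sources used here. Each gene has, per the file headers, a deposited FPKM and a deposited count for every library. The FPKM values were computed by the authors with 1 fixed length per gene. The deposited counts are whole numbers, and no column belonged to another sample.

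The main test was edgeR 4.0.16 (quasi-likelihood, R 4.3.3) with TMM scaling, column totals as library sizes and all 9 libraries in 1 fit without a block, over 12507 genes (FPKM 1 or more in 3 or more libraries), with a Benjamini-Hochberg adjusted p under 0.05 as the threshold. A first run used edgeR's robust estimation. It was turned off, to follow the processing described for the series, after the counts of called genes from that run had been seen, and both are given in the closing section. CPM are counts per 1e+06 after TMM scaling. The edgeR fit was also run on simulated counts with known changes. DESeq2 1.42.0 and limma 3.58.1 were alternatives, with other filters, scalings, a replicate block and leaving out each library. GENCODE M21 transcripts were compared by BLAST+ 2.17.0, and no gene of the 10 reached 50% at 95% identity. Libraries of 1 group differed far beyond sampling noise (chi-square per gene 74.2 to 366), so none was counted as a copy.

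The genes, lists and alternatives were chosen with earlier results of these data known. All 10 genes were named, and from each of 3 partner lists the 2 genes of smallest p in CDH16KO-AngII against AngII, with Nr3c2, Klhl3, Oxsr1, Slc12a1, Pvalb and Aqp2. A gene that this rule takes is not reported here. Trpm6, Per1, Tsc22d3, the other distal convoluted tubule markers and the fold changes that are given for genes outside the 10 were chosen after their values were seen. Promoters are from RefSeq (GRCm38.p6).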

Additional observations from a re-analysis of the deposited data

How the results depend on the processing

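Over 690 values of the 10 genes (30 gene comparisons, 420 values from other settings and 270 from leaving out 1 library) edgeR, DESeq2 or limma called 0, the smallest adjusted p was 0.137, and 15 had the other sign. Wnk4 in GRPR-AngII against AngII was -0.05 without scaling and -0.06 and -0.06 with limma on log2(FPKM + 1) and log2(FPKM + 0.1), and Stk39 there was -0.0012 without scaling. Limma on FPKM, which has no TMM scaling, moved the median of all genes to -0.06 and -0.076 there.

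Leaving out 1 library gave ranges in CDH16KO-AngII against AngII of -0.07 to 0.15 for Slc12a3, -0.36 to 0.07 for Scnn1a and -0.52 to 0.24 for Sgk1. In GRPR-AngII against AngII they were -0.43 to 0.0002 for Scnn1a, -0.28 to 0.01 for Scnn1b, -0.08 to 0.19 for Wnk4 and -0.08 to 0.20 for Stk39. In GRPR-AngII against CDH16KO-AngII they were -0.18 to 0.11 for Scnn1a and -0.05 to 0.13 for Scnn1g. The ratio of Slc12a3 to Hsd11b2 in AngII was 0.729 by mean FPKM and 1.88 by the longest transcript.

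Genes called in CDH16KO-AngII against AngII, GRPR-AngII against AngII and GRPR-AngII against CDH16KO-AngII numbered 21, 0 and 18 in the main test, 210, 45 and 175 by DESeq2, and 25, 0 and 20 with robust estimation, which was run first. In the last comparison 41 were called without a filter and 9 in a fit of those groups alone. Leaving out 1 library gave 0 to 42, 0 to 2 and 0 to 50. In the first comparison, dropping AngII library 1 left 0, AngII library 2 left 3, CDH16KO-AngII libraries 1, 2 and 3 left 42, 35 and 3, and GRPR-AngII library 1 left 12. In the second, dropping AngII library 3 gave 2 and GRPR-AngII library 1 gave 1. In the last, dropping CDH16KO-AngII libraries 1 and 3 left 50 and 2, and GRPR-AngII libraries 1, 2 and 3 left 0, 6 and 5. The cause was not tested.

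With the replicate number as a block the counts were 26, 0 and 13, and no gene of the 10 was called. Same-numbered libraries correlated at -0.04, 0.32 and 0.30, at -0.13, 0.14 and 0.28, and at 0.09, 0.19 and 0.26 in the 3 comparisons. Libraries of unlike number correlated at -0.35 to 0.05, -0.33 to 0.24 and -0.25 to 0.03. With the block, 1642, 1270 and 1051 genes had an unadjusted edgeR p under 0.05, against 1057, 843 and 780 without it. The main test used no block, and whether the numbers pair the libraries was not settled. With 3 libraries a group, the interval of Sgk1 reached past 2-fold.

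Of 1173 values of 17 other named genes (51 gene comparisons), 4 were called, all by DESeq2, and 51 changed sign. Fxyd2, Klhl3, Oxsr1 and Tsc22d3 in GRPR-AngII against AngII were -0.05, -0.06, -0.02 and -0.04 without scaling, -0.04, -0.03, -0.02 and -0.06 with limma on log2(FPKM + 1), and -0.04, -0.04, -0.02 and -0.08 on log2(FPKM + 0.1). Tsc22d3 there was -0.0035 with the block and -0.01 with limma-voom, and Fkbp5 was 0.0014, 0.002 and 0.0021 with a filter of FPKM 0.1, without a filter and with filterByExpr. Leaving out 1 library gave ranges in CDH16KO-AngII against AngII of -0.18 to 0.41 for Calb1, -0.27 to 0.03 for Egf, -0.14 to 0.07 for Klhl3, -0.15 to 0.48 for Per1, -0.14 to 0.56 for Slc12a1 and -0.25 to 1.10 for Aqp2. For GRPR-AngII against AngII they were -0.01 to 0.12 for Fxyd2, -0.22 to 0.06 for Ppp1r1a, -0.08 to 0.13 for Klhl3, -0.07 to 0.17 for Oxsr1, -0.43 to 0.24 for Fkbp5, -0.43 to 0.24 for Per1 and -0.28 to 0.23 for Tsc22d3. In GRPR-AngII against CDH16KO-AngII they were -0.13 to 0.47 for Calb1, -0.17 to 0.02 for Fxyd2, -0.25 to 0.35 for Pdpk1, -0.48 to 0.02 for Per1 and -0.31 to 1.06 for Aqp2.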
